A study of Mus musculus with 12 samples.

Results

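The Wnt ligands, their receptors and the secreted and intracellular proteins that tune them were followed across 4 groups of mouse brain cells. Members were the protein-coding entries of the deposited expression table named Wnt, Fzd, Sfrp, Dkk or Rspo with a number, together with Nkd1, Nkd2, Axin1, Axin2, Lrp5, Lrp6, Lef1, Tcf7 and Notum. This rule found 50 members among 21926 protein-coding entries by name and gene type. They comprised 19 Wnt ligands, 12 receptors and co-receptors, 4 R-spondins, 9 secreted antagonists, 4 intracellular feedback genes and 2 transcription factors. Of the 50 members, 35 reached 1 FPKM in at least 3 libraries and were tested, and 15 did not. FPKM counts fragments per kilobase of gene, so that levels of genes can be compared. How the values were scaled between libraries was not stated.

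The A-iSC group held cells derived from mouse astrocytes by 5 days of incubation in 3D spheres. Progenitor cells taken from brain made up P56-NSC and P0-NSC, the positive controls, and AST, the negative control, held astrocytes at 0 days of incubation. Each group had 3 libraries, all from C57BL/6 mice and labelled as brain, although the title of the series names a study of retina, and no allele, agent or age beyond the group names was given for any group. How the progenitors were isolated is not stated, nor are separate animals or cultures named for replicates, so a p-value reflects the spread among libraries, possibly no more than a technical spread. A-iSC, P56-NSC and P0-NSC were each set against AST, which asks what differed from the starting astrocytes, and A-iSC was set against each brain-derived group. The 3 comparisons with AST share the same AST libraries, and their values are given side by side.

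Wnt proteins are lipid-modified secreted ligands that bind Frizzled receptors together with the co-receptors Lrp5 or Lrp6. In the canonical branch this binding stops the Axin scaffold from marking beta-catenin for destruction, and beta-catenin then acts with TCF and LEF factors on target genes, among them Axin2, Nkd1 and Notum, which feed back on the pathway. R-spondins raise the amount of receptor at the cell surface, Sfrp proteins bind Wnts outside the cell, and in brain the pathway is known for forebrain patterning, progenitor growth and formation of the blood-brain barrier.

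Depth ranged from 17077780 to 24452419 recovered reads per library, and a single read over 1 kb corresponded to 0.0343 to 0.0623 FPKM depending on the library. The depth implied by the FPKM values was 1.10 to 1.15 times the recovered reads in A-iSC and 0.744 to 0.779 times in P56-NSC. In P0-NSC it was 1.15 to 1.22 times and in AST 0.941 to 0.985 times. Mitochondrial genes took 3.05% to 7.03% of reads in A-iSC, 16.5% to 17.6% in P56-NSC, 3.67% to 5.55% in P0-NSC and 2.94% to 4.70% in AST. The summed level of 8 of 8 astrocyte markers was 1211 to 2466 FPKM in A-iSC, 2834 to 3072 in P56-NSC, 238 to 303 in P0-NSC and 143 to 161 in AST. The AST libraries, labelled as astrocytes, thus had the lowest sum of astrocyte markers, with Gfap, the defining one, at 658 to 1483 FPKM in A-iSC and 27.2 to 31.3 in AST. That sum rests on Aldoc, Gfap, Slc1a3 and Slc1a2, while Aqp4, Aldh1l1, Gja1 and S100b had higher means in AST than in P0-NSC, as with Aqp4 at 5.60 FPKM in P0-NSC and 30.8 in AST. Nes, a progenitor filament gene, had 64.4 to 73.7 FPKM in A-iSC, 3.48 to 3.91 in P56-NSC, 26.1 to 27.9 in P0-NSC and 182 to 209 in AST, so that the groups labelled as progenitors had less of it than AST. Markers of other cells also differed between groups. The oligodendrocyte lineage list reached 8032 to 9133 FPKM in P56-NSC, and the neuron list 816 to 999 in P0-NSC, most of it Tubb3. Snap25, Gad1, Syt1 and Slc17a7 had higher means in P56-NSC. The microglia list reached 1098 to 1517 in A-iSC, most of it C1qa. Its genes P2ry12 and Tmem119 averaged 60.2 and 52.2 in P56-NSC and 7.30 and 16.8 in A-iSC, while the others had their highest means in A-iSC. The fibroblast and mural list reached 1883 to 2270 in AST, where Acta2 and Col1a1 made up nearly all of it. Red blood cell genes summed to at most 0.548 FPKM in A-iSC libraries and 0.143 in AST libraries. In these bulk libraries fewer cells of a type and less RNA per cell cannot be told apart. Among the A-iSC libraries, A-iSC 3 stood apart. Deviations from the group mean followed gene length with a Spearman correlation across genes, which are not independent replicates, of -0.281, -0.233 and 0.328 for the A-iSC libraries and 0.361, -0.45 and 0.385 for the AST libraries, numbered 1 to 3.

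Against AST, 22 of the 35 tested members were called in A-iSC (limma, Benjamini-Hochberg adjusted p below 0.05), beside 58.9% of all 15747 genes tested. Of these, 7 were higher (28.1% of all genes) and 15 lower (30.8% of all genes), and the median log2 change was -0.11 for members and 0.00 for all genes. In P56-NSC 26 members were called against AST, with 74.1% of all genes called, 11 of them higher (37.1% of all genes) and 15 lower (37.0% of all genes), with medians of -0.14 for members and 0.00 for all genes. In P0-NSC 29 were called against AST, with 74.2% of all genes called, 16 of them higher (35.9% of all genes) and 13 lower (38.3% of all genes), with medians of 0.27 for members and -0.04 for all genes. The called members were 62.9% of those tested in A-iSC, 74.3% in P56-NSC and 82.9% in P0-NSC, shares that read as near the background in A-iSC and P56-NSC. Wnt2b, Wnt8b, Rspo2, Lef1, Nkd2 and Sfrp2 passed the filter of 1 FPKM in at least 3 libraries only through P0-NSC. Sfrp5 and Wnt3 passed it only through P56-NSC. A higher level of these members in that group was thus partly set by the filter. Calls and adjusted p-values given for that higher level share this limit. With libraries scaled by total reads in place of the authors' scaling, the A-iSC split against AST was 10 higher and 13 lower.

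Set against P0-NSC, most called members were lower. The members that passed the filter only through P0-NSC are among them, and they also feed the medians and the count of highest means. A-iSC differed from P0-NSC in 27 members (67.3% of all genes called), of which 6 were higher (32.6% of all genes) and 21 lower (60.0% of members, 34.7% of all genes), and the median log2 change was -0.51 for members and -0.01 for all genes. P56-NSC differed from P0-NSC in 29 members (69.2% of all genes called), with 5 higher (35.3% of all genes) and 24 lower (68.6% of members, 33.9% of all genes) and medians of -0.69 for members and 0.00 for all genes. With the filter at 5 FPKM, which left 24 members to test, A-iSC against P0-NSC gave 5 higher and 11 lower. In that setting P56-NSC against P0-NSC gave 4 higher and 14 lower. A-iSC differed from P56-NSC in 24 members (62.9% of all genes called), 13 higher (31.5% of all genes) and 11 lower (31.3% of all genes), with medians of 0.03 for members and for all genes. That split became 17 higher and 8 lower with scaling by total reads, and 17 and 9 in a fit that kept only A-iSC 3, AST 1 and AST 3 beside the progenitor libraries, in which A-iSC against P0-NSC gave 10 and 17. In that fit the lone A-iSC library is assumed to vary like the libraries of the other groups, so its counts are not on a par with those of 3 libraries a group. Of the 35 tested members, 3 had their highest mean in A-iSC, 5 in P56-NSC, 15 in P0-NSC and 12 in AST.

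**Figure D1:**
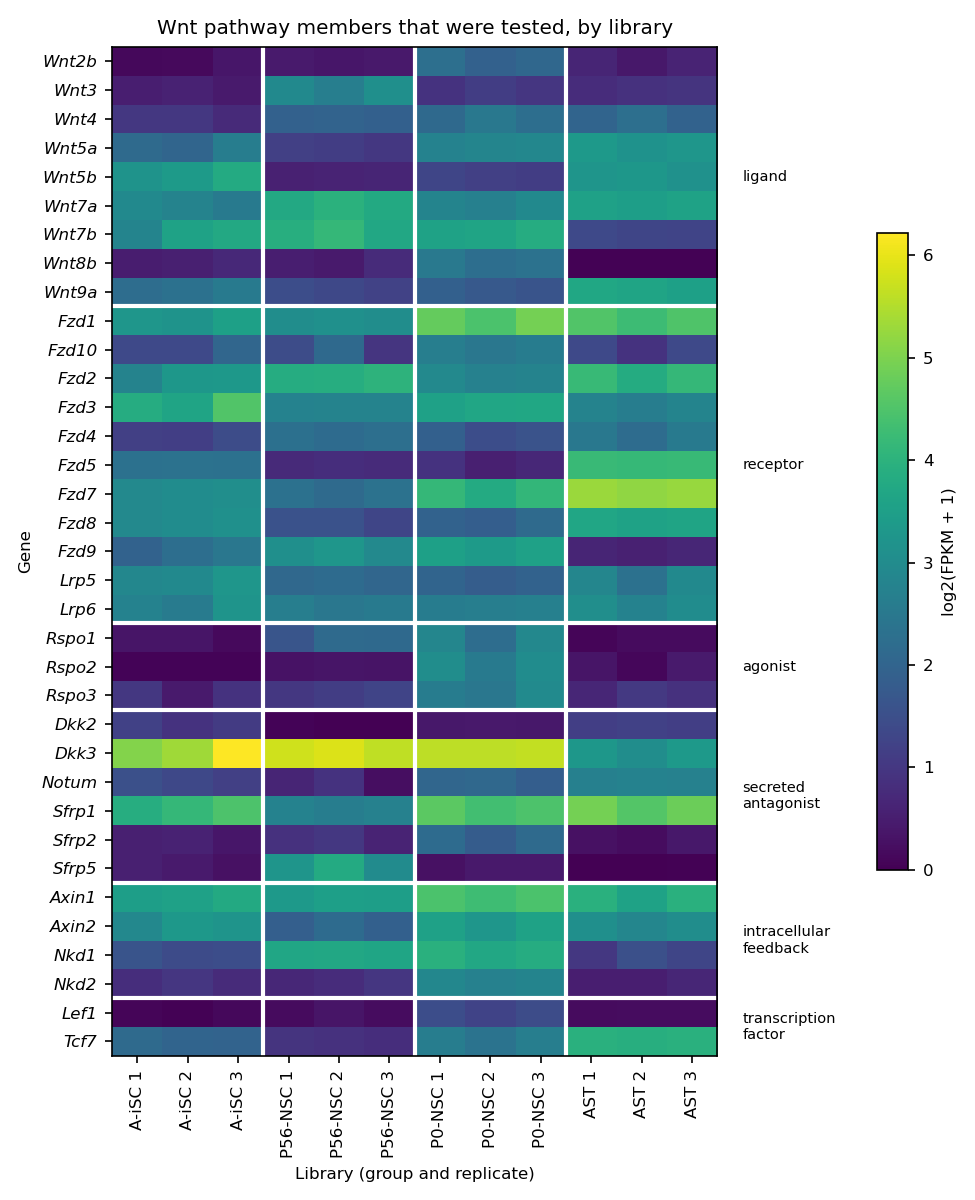
Level of each tested member as log2(FPKM + 1), with 1 row per gene in order of role and 1 column per library in 4 groups of 3. Dkk3 is the brightest row in A-iSC, P56-NSC and P0-NSC, and Fzd7 the brightest in AST; R-spondins are bright in P0-NSC.

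Summed over the 19 Wnt ligands, expression was 36.3 ± 6.16 FPKM in A-iSC, 43.4 ± 2.18 in P56-NSC, 43.5 ± 1.16 in P0-NSC and 46.7 ± 1.39 in AST (mean ± SD, n = 3 each). On the authors' scaling the sums ran from 36.3 to 46.7 FPKM, while the ligands that made them up differed. These and the other sums by role were not computed with scaling by total reads. That scaling shifted the median of all genes by -0.451 on the log2 scale in P56-NSC against P0-NSC. Wnt5b with 28.0% and Wnt7b with 27.0% of the summed mean led in A-iSC, Wnt7b with 33.0% and Wnt7a with 30.6% in P56-NSC, Wnt7b with 27.2% in P0-NSC, and Wnt9a with 24.2% and Wnt7a with 22.7% in AST. Of the 9 ligands tested in A-iSC against AST, 2 rose, 6 fell and 1 was not called, beside 28.1% of all genes higher and 30.8% lower.

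Wnt7b (chr15:85535437-85582473, GRCm38) and Wnt7a (chr6:91363981-91411363) encode near relatives that neural progenitors supply to growing brain vessels. Wnt7b had 6.0, 11.0 and 12.4 FPKM in A-iSC, 13.9, 16.8 and 12.3 FPKM in P56-NSC, 10.9, 11.3 and 13.3 FPKM in P0-NSC and 1.58, 1.45 and 1.43 FPKM in AST. All 9 libraries of A-iSC, P56-NSC and P0-NSC lay above all AST libraries, and A-iSC 1 was the lowest of those 9. The log2 change of Wnt7b was 2.06 (SE 0.20, limma adjusted p 3.7e-06) in A-iSC, 2.61 (adjusted p 1.8e-07) in P56-NSC and 2.36 (adjusted p 5.2e-07) in P0-NSC, each against AST. Wnt7a had 6.76, 5.90 and 4.86 FPKM in A-iSC, 12.5, 14.8 and 12.6 FPKM in P56-NSC, 5.98, 5.49 and 6.67 FPKM in P0-NSC and 10.7, 10.1 and 11.0 FPKM in AST. Here A-iSC and P0-NSC overlapped each other and lay below AST, and P56-NSC lay above every other group. Wnt7a fell against AST, with log2 changes of -0.77 in A-iSC (SE 0.11, adjusted p 0.00011) and -0.72 in P0-NSC (adjusted p 0.00011). The ratio of Wnt7b to Wnt7a was 0.887, 1.86 and 2.55 in A-iSC, 1.11, 1.13 and 0.975 in P56-NSC, 1.82, 2.06 and 1.99 in P0-NSC and 0.148, 0.143 and 0.130 in AST. Wnt7a was called higher in P56-NSC than in AST (0.30, adjusted p 0.033), but not with scaling by total reads (-0.017) or without P56-NSC 2, AST 1 or AST 2 (adjusted p 0.0655 to 0.13). The lower Wnt7b of A-iSC against P56-NSC (-0.55, adjusted p 0.033) was lost without A-iSC 1, P56-NSC 1 or P56-NSC 2 (adjusted p 0.0643 to 0.12). It was -0.035 with scaling by total reads (adjusted p 0.88), -0.035 with voom (adjusted p 0.89) and -0.49 with quantile normalization (adjusted p 0.0525). Against P0-NSC, Wnt7b of A-iSC was not called (log2 difference -0.30, adjusted p 0.21), and without A-iSC 3 it was (-0.48, adjusted p 0.045).

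Wnt5a and Wnt5b are the ligands best known for the branch of the pathway that works without beta-catenin. Wnt5a had 3.47, 3.08 and 5.22 FPKM in A-iSC, 1.27, 1.18 and 1.02 FPKM in P56-NSC, 5.77, 6.14 and 6.32 FPKM in P0-NSC and 9.08, 7.96 and 8.60 FPKM in AST. All 4 groups were apart from one another, with AST highest and P56-NSC lowest. Wnt5a fell against AST, with log2 changes of -0.98 in A-iSC (SE 0.14, adjusted p 6.8e-05), -2.15 in P56-NSC (adjusted p 2.9e-08) and -0.43 in P0-NSC (adjusted p 0.013), the last of which became -0.18 with scaling by total reads (adjusted p 0.27). Wnt5b had 8.08, 9.56 and 12.9 FPKM in A-iSC, 0.478, 0.540 and 0.572 FPKM in P56-NSC, 1.45, 1.27 and 1.20 FPKM in P0-NSC and 8.45, 8.79 and 7.79 FPKM in AST. A-iSC and AST overlapped at high levels, and both brain-derived groups were low. The log2 change of Wnt5b in A-iSC against AST was 0.24 (SE 0.13, adjusted p 0.15) and was called without A-iSC 1 (0.37, adjusted p 0.022) or with scaling by total reads (0.43, adjusted p 0.018). Against AST it was -2.61 in P56-NSC (adjusted p 3.6e-09) and -2.02 in P0-NSC (adjusted p 4.5e-08), and Wnt5b of A-iSC exceeded P56-NSC by 2.85 (adjusted p 3.2e-09) and P0-NSC by 2.25 (adjusted p 2.4e-08). Wnt5b stood at 2.33, 3.11 and 2.46 times the level of Wnt5a in A-iSC, and at 0.931, 1.11 and 0.906 times in AST.

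Wnt9a, a ligand known from joint development, led the ligands of AST. Wnt9a had 3.67, 3.95 and 4.83 FPKM in A-iSC, 1.77, 1.53 and 1.33 FPKM in P56-NSC, 2.73, 2.33 and 2.05 FPKM in P0-NSC and 12.1, 11.3 and 10.5 FPKM in AST. Every library of the other groups lay below AST, with A-iSC between AST and the brain-derived groups. Against AST the log2 change was -1.26 in A-iSC (SE 0.11, adjusted p 1.8e-06), -2.28 in P56-NSC (adjusted p 3.3e-09) and -1.87 in P0-NSC (adjusted p 2.4e-08). Wnt4, best known from kidney and gonad development, showed another order. Wnt4 had 1.01, 1.0 and 0.685 FPKM in A-iSC, 2.84, 2.93 and 2.72 FPKM in P56-NSC, 3.39, 4.62 and 3.72 FPKM in P0-NSC and 3.01, 3.81 and 2.88 FPKM in AST. A-iSC was below all libraries of the other groups, and both brain-derived groups overlapped AST. The log2 difference of Wnt4 in A-iSC was -1.02 against P56-NSC (adjusted p 1.3e-05), -1.37 against P0-NSC (adjusted p 8.3e-07) and -1.16 against AST (SE 0.12, adjusted p 5.7e-06). The lower Wnt4 of P56-NSC against P0-NSC (-0.35, adjusted p 0.021) was lost without P56-NSC 3 (adjusted p 0.0598) or P0-NSC 2 (adjusted p 0.091).

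Of the remaining tested ligands, Wnt3 is known as an astrocyte signal in the adult hippocampus, and Wnt2b and Wnt8b mark the cortical hem, which borders the embryonic hippocampus. Wnt3 had 0.435, 0.506 and 0.376 FPKM in A-iSC, 6.70, 5.35 and 7.60 FPKM in P56-NSC, 0.867, 1.18 and 0.968 FPKM in P0-NSC and 0.737, 0.834 and 0.910 FPKM in AST. P56-NSC was high and the other groups were at or near 1 FPKM or lower. Wnt3 was higher in P56-NSC than in AST by 2.04 on the log2 scale (SE 0.11, adjusted p 8.3e-09), and in A-iSC the change was -0.34 (adjusted p 0.020), which was lost without AST 3 (adjusted p 0.0683) or with scaling by total reads (adjusted p 0.071). Wnt2b had 0.0945, 0.110 and 0.293 FPKM in A-iSC, 0.357, 0.297 and 0.332 FPKM in P56-NSC, 3.81, 2.81 and 3.25 FPKM in P0-NSC and 0.568, 0.329 and 0.526 FPKM in AST. P0-NSC was far above every other library, and A-iSC was below AST. The log2 change of Wnt2b against AST was 1.54 in P0-NSC (SE 0.11, adjusted p 8.1e-08) and -0.34 in A-iSC (adjusted p 0.017), and without A-iSC 1, A-iSC 2, AST 1 or AST 3 the fall in A-iSC was no longer called (adjusted p 0.0571 to 0.0665). Wnt8b had 0.414, 0.471 and 0.654 FPKM in A-iSC, 0.447, 0.376 and 0.698 FPKM in P56-NSC, 4.71, 3.77 and 4.04 FPKM in P0-NSC and 0.0171, 0.0283 and 0.0310 FPKM in AST. P0-NSC was high, A-iSC and P56-NSC overlapped at low levels, and AST held 1, 2 and 2 reads. On the log2(FPKM + 1) scale Wnt8b rose by 0.56 in A-iSC (SE 0.10, adjusted p 0.00064), 0.55 in P56-NSC (adjusted p 0.00044) and 2.33 in P0-NSC (adjusted p 1.8e-09). The pseudocount of 1 compresses changes of such low genes, and with 0.1 the changes in A-iSC against AST were 2.27 for Wnt8b, -1.16 for Wnt2b, -0.78 for Wnt3 and -1.75 for Wnt4. The stretch before the start of Wnt8b is shown because it holds a copy of the short motif that TCF and LEF factors bind and because Wnt8b differed between P0-NSC and every other group. It is the RefSeq window of 250 bases before the gene's start (chr19:44493222-44493471, plus strand, GRCm38.p6), read 5′ to 3′, with the motif in capitals.
Wnt8b: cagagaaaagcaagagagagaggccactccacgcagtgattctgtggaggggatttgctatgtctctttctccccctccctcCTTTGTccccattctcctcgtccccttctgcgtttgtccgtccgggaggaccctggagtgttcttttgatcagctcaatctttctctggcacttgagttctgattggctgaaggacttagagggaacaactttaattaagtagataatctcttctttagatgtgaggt
The motif was searched as CTTTGA or CTTTGT on both strands, so that capitals read TCAAAG or ACAAAG where the match is on the other strand, and both motifs share their first 5 letters. Promoter windows were at hand for 32 of the 50 members, of which 8 (25%) held the motif in the 250 bases before a start, beside 30.8% of the 27025 genes in the RefSeq table. A match describes letters only, and a window without one says nothing about the factor.

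**Figure D2:**
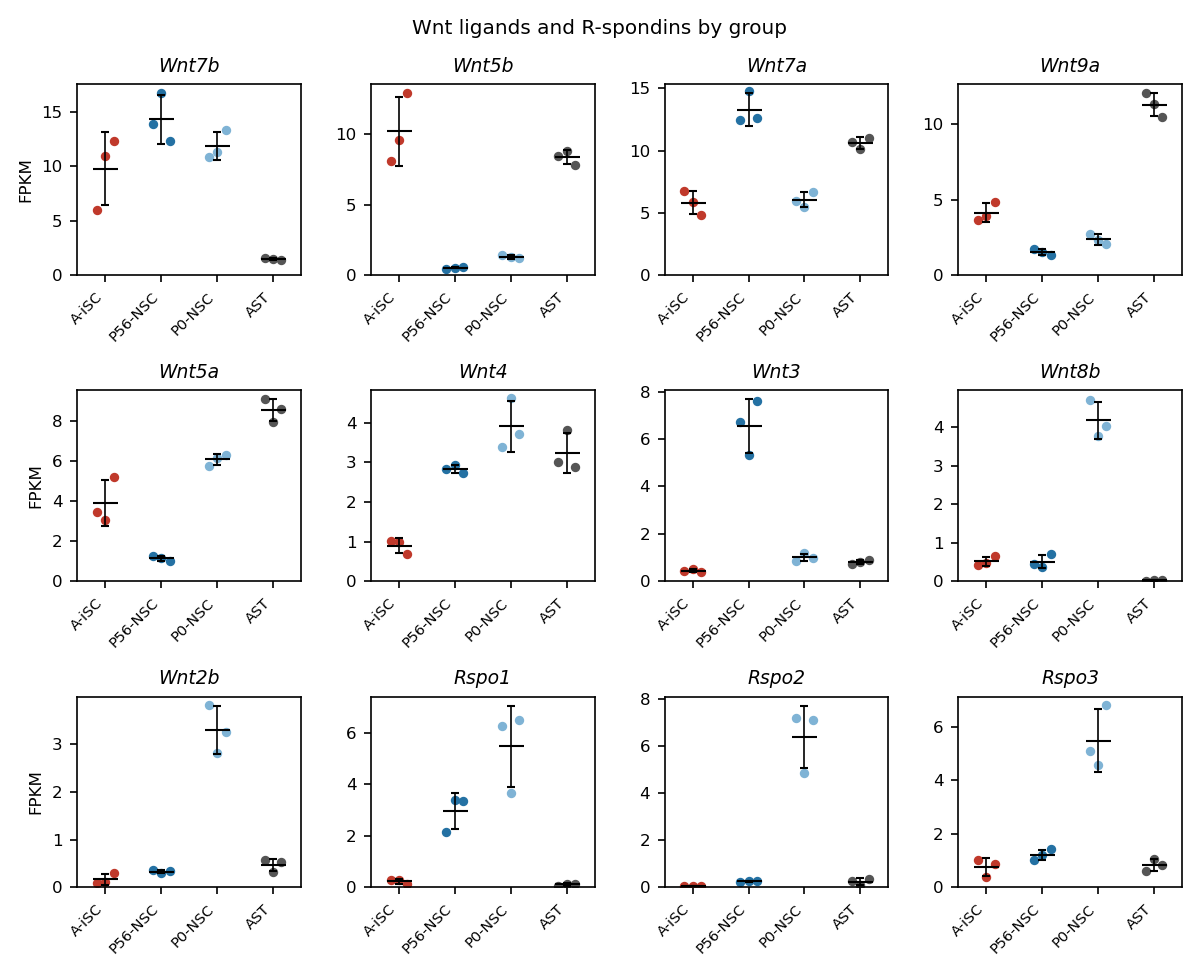
FPKM of 9 Wnt ligands and 3 R-spondins, 1 panel per gene on a linear axis that starts at 0, with a point per library, a bar at the mean and whiskers of 1 SD for A-iSC, P56-NSC, P0-NSC and AST. Wnt7b is low in AST alone, Wnt4 is low in A-iSC, Wnt3 is high in P56-NSC, and Wnt2b, Wnt8b and Rspo2 are high in P0-NSC.

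Summed over 10 Frizzled genes with Lrp5 and Lrp6, the level was 72.1 ± 13.9 FPKM in A-iSC, 55.4 ± 1.52 in P56-NSC, 87.5 ± 8.12 in P0-NSC and 127 ± 10.3 in AST (mean ± SD, n = 3 each). Of 11 tested receptors, 6 fell, 2 rose and 3 were not called in A-iSC against AST, beside 30.8% of all genes lower and 28.1% higher. The 6 that fell were Fzd7, Fzd5, Fzd4, Fzd1, Fzd2 and Fzd8, all of them under each of the scalings tried. Fzd3 led the receptors of A-iSC with 21.8% of the summed mean, Fzd2 those of P56-NSC with 25.4%, Fzd1 those of P0-NSC with 28.9% and Fzd7 those of AST with 29.1%.

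Fzd1, Fzd2 and Fzd7 (chr1:59482424-59486955, GRCm38) form a subfamily of closely related Frizzled receptors. Fzd7 had 6.57, 7.08 and 7.42 FPKM in A-iSC, 4.03, 3.44 and 4.11 FPKM in P56-NSC, 16.6, 12.9 and 16.4 FPKM in P0-NSC and 38.1, 35.4 and 37.0 FPKM in AST. No groups overlapped, and AST was the highest. Fzd7 fell against AST, with log2 changes of -2.24 in A-iSC (SE 0.10, adjusted p 7.6e-09), -2.96 in P56-NSC (adjusted p 1.5e-10) and -1.22 in P0-NSC (adjusted p 4.7e-07). Fzd1 had 8.57, 8.21 and 10.7 FPKM in A-iSC, 7.32, 7.66 and 7.23 FPKM in P56-NSC, 26.0, 20.8 and 29.0 FPKM in P0-NSC and 22.0, 18.3 and 21.6 FPKM in AST. A-iSC and P56-NSC were low, and P0-NSC overlapped AST at high levels. Against AST the log2 change was -1.10 in A-iSC (SE 0.13, adjusted p 1.8e-05) and -1.36 in P56-NSC (adjusted p 1.2e-06), and in P0-NSC it was 0.27 and not called (adjusted p 0.077). Fzd2 had 5.86, 8.74 and 8.88 FPKM in A-iSC, 13.3, 13.7 and 15.3 FPKM in P56-NSC, 6.59, 5.67 and 5.83 FPKM in P0-NSC and 17.1, 13.2 and 16.8 FPKM in AST. Here P56-NSC overlapped AST at high levels, and A-iSC and P0-NSC were low. Fzd2 fell against AST, with log2 changes of -0.93 in A-iSC (SE 0.15, adjusted p 0.00017) and -1.24 in P0-NSC (adjusted p 8.2e-06), and in P56-NSC the change was -0.14 (adjusted p 0.41). The lower Fzd2 of A-iSC against P56-NSC (-0.79, adjusted p 0.00048) became -0.28 with scaling by total reads (adjusted p 0.13). The ratio of Fzd3 to Fzd7 was 2.03, 1.62 and 2.99 in A-iSC, 1.44, 1.72 and 1.44 in P56-NSC, 0.649, 0.920 and 0.729 in P0-NSC and 0.153, 0.148 and 0.163 in AST.

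Fzd5 and Fzd8 form another subfamily, of which Fzd5 is known from the eye and the gut. Fzd5 had 4.03, 4.06 and 3.98 FPKM in A-iSC, 0.675, 0.757 and 0.694 FPKM in P56-NSC, 0.866, 0.467 and 0.609 FPKM in P0-NSC and 17.6, 16.9 and 17.2 FPKM in AST. A-iSC stood between AST and the brain-derived groups, which overlapped each other below 1 FPKM. The log2 change of Fzd5 against AST was -1.86 in A-iSC (SE 0.092, adjusted p 1.2e-08), -3.42 in P56-NSC (adjusted p 1.9e-11) and -3.48 in P0-NSC (adjusted p 3.2e-11). Fzd8 had 6.58, 7.10 and 7.71 FPKM in A-iSC, 1.99, 1.95 and 1.46 FPKM in P56-NSC, 2.85, 2.60 and 3.46 FPKM in P0-NSC and 11.8, 10.9 and 11.4 FPKM in AST. The order of the groups was AST, A-iSC, P0-NSC and P56-NSC, with no overlap between any of them. Fzd8 fell against AST, with log2 changes of -0.61 in A-iSC (SE 0.11, adjusted p 0.00045), -2.15 in P56-NSC (adjusted p 3.4e-09) and -1.64 in P0-NSC (adjusted p 4.6e-08). The windows before the starts of Fzd7, Fzd1 and Fzd5 are shown as examples of receptors that fell by more than 1 on the log2 scale in A-iSC against AST. Fzd4, which did too, has a window with 0 matches that is not shown. The 3 windows lie at chr1:59481897-59482146 on the plus strand and at chr5:4758217-4758466 and chr1:64737751-64738000 on the minus strand (GRCm38.p6, 250 bases each), are read 5′ to 3′, and carry the TCF and LEF motif in capitals.
Fzd7: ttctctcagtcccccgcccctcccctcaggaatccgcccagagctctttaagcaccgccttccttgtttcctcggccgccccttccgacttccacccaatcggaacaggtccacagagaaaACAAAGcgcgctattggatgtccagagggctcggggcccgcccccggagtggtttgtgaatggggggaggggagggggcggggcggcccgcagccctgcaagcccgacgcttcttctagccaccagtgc
Fzd1: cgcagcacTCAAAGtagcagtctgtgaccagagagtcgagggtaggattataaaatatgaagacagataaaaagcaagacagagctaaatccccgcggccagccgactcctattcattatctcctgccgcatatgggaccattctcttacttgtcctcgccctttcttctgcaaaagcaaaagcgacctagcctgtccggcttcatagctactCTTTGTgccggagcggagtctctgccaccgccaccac
Fzd5: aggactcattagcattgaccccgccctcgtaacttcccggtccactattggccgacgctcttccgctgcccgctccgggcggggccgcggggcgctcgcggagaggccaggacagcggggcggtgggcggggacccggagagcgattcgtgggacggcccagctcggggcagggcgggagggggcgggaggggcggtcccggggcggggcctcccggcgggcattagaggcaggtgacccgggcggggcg
Fzd7 held 1 match, Fzd1 held 2 and Fzd5 held 0, so that with Fzd4 the motif was found in 2 of these 4 windows.

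Fzd4, which also serves as the receptor of the vascular ligand norrin, was lowest in A-iSC. Fzd4 had 1.27, 1.21 and 1.72 FPKM in A-iSC, 3.94, 3.50 and 3.85 FPKM in P56-NSC, 2.73, 1.78 and 2.0 FPKM in P0-NSC and 4.59, 3.62 and 4.94 FPKM in AST. A-iSC lay below every library of the other groups, and P56-NSC overlapped AST. Fzd4 fell by 1.16 on the log2 scale in A-iSC against AST (SE 0.13, adjusted p 1.4e-05) and differed from P56-NSC by -1.0 (adjusted p 4.0e-05) and from P0-NSC by -0.40 (adjusted p 0.020). The difference from P0-NSC was lost without A-iSC 1, A-iSC 2 or P0-NSC 1 (adjusted p 0.0594 to 0.093), and that of P56-NSC from P0-NSC (0.60, adjusted p 0.0018) became 0.13 with scaling by total reads.

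Fzd3 and Fzd9 rose in A-iSC. Fzd3 guides axons and cell polarity and Fzd9 is known from the hippocampus. Fzd3 had 13.3, 11.5 and 22.2 FPKM in A-iSC, 5.80, 5.90 and 5.90 FPKM in P56-NSC, 10.7, 11.9 and 11.9 FPKM in P0-NSC and 5.83, 5.22 and 6.04 FPKM in AST. A-iSC overlapped P0-NSC, and P56-NSC overlapped AST at a lower level. Fzd3 rose against AST by 1.26 in A-iSC (SE 0.18, adjusted p 7.4e-05) and by 0.90 in P0-NSC (adjusted p 0.00061), and in P56-NSC the change was 0.038 (adjusted p 0.86). A-iSC 3, the library with the highest Fzd3, was also the A-iSC library whose deviations rose with gene length. Without A-iSC 3 the rise against AST was 1.0 (adjusted p 2.3e-06). Against P0-NSC, Fzd3 of A-iSC differed by 0.36 (adjusted p 0.093) and was called without A-iSC 2 (0.54, adjusted p 0.014) and with the length trend removed (0.63, adjusted p 0.0012). Fzd9 had 2.88, 3.72 and 4.51 FPKM in A-iSC, 7.54, 8.69 and 6.54 FPKM in P56-NSC, 10.6, 9.45 and 10.7 FPKM in P0-NSC and 0.572, 0.495 and 0.587 FPKM in AST. All A-iSC, P56-NSC and P0-NSC libraries lay above AST, in that order from low to high. The log2 change of Fzd9 against AST was 1.59 in A-iSC (SE 0.13, adjusted p 7.9e-07), 2.46 in P56-NSC (adjusted p 5.5e-09) and 2.86 in P0-NSC (adjusted p 2.2e-09), and with a pseudocount of 0.1 it was 2.53 in A-iSC. Fzd9 of P56-NSC was below P0-NSC (-0.39, adjusted p 0.018), a call lost without P56-NSC 3, P0-NSC 1 or P0-NSC 3 (adjusted p 0.0531 to 0.080).

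Fzd10 was highest in P0-NSC, and the co-receptors Lrp5 and Lrp6 varied less. Fzd10 had 1.60, 1.58 and 3.18 FPKM in A-iSC, 1.72, 3.39 and 0.934 FPKM in P56-NSC, 5.30, 4.49 and 5.07 FPKM in P0-NSC and 1.60, 0.895 and 1.59 FPKM in AST. P0-NSC was above all other libraries, and A-iSC, P56-NSC and AST overlapped, with the widest spread in P56-NSC. Fzd10 rose in P0-NSC against AST by 1.35 (SE 0.27, adjusted p 0.00071) and in A-iSC the change was 0.38 (adjusted p 0.25). Lrp5 had 6.40, 6.74 and 8.68 FPKM in A-iSC, 3.28, 3.47 and 3.16 FPKM in P56-NSC, 2.99, 2.57 and 2.86 FPKM in P0-NSC and 6.27, 3.99 and 6.73 FPKM in AST. A-iSC overlapped AST, and both brain-derived groups lay below all other libraries. Lrp5 of A-iSC exceeded P56-NSC by 0.93 (adjusted p 0.00023) and P0-NSC by 1.11 (adjusted p 4.8e-05), and its change against AST, 0.33 (adjusted p 0.090), was called without AST 3 (0.45, adjusted p 0.038) or with scaling by total reads (0.52, adjusted p 0.018). Lrp6 ranged over 4.98 to 8.34 FPKM in A-iSC, 4.54 to 5.37 in P56-NSC, 5.14 to 5.49 in P0-NSC and 5.72 to 7.39 in AST, and 1 of its 6 comparisons was called, P56-NSC against AST (-0.38, adjusted p 0.036). That call was lost without P56-NSC 2, P56-NSC 3, AST 1 or AST 3 (adjusted p 0.075 to 0.12). In A-iSC against AST Lrp6 was called without A-iSC 3 (-0.27, adjusted p 0.0469).

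**Figure D3:**
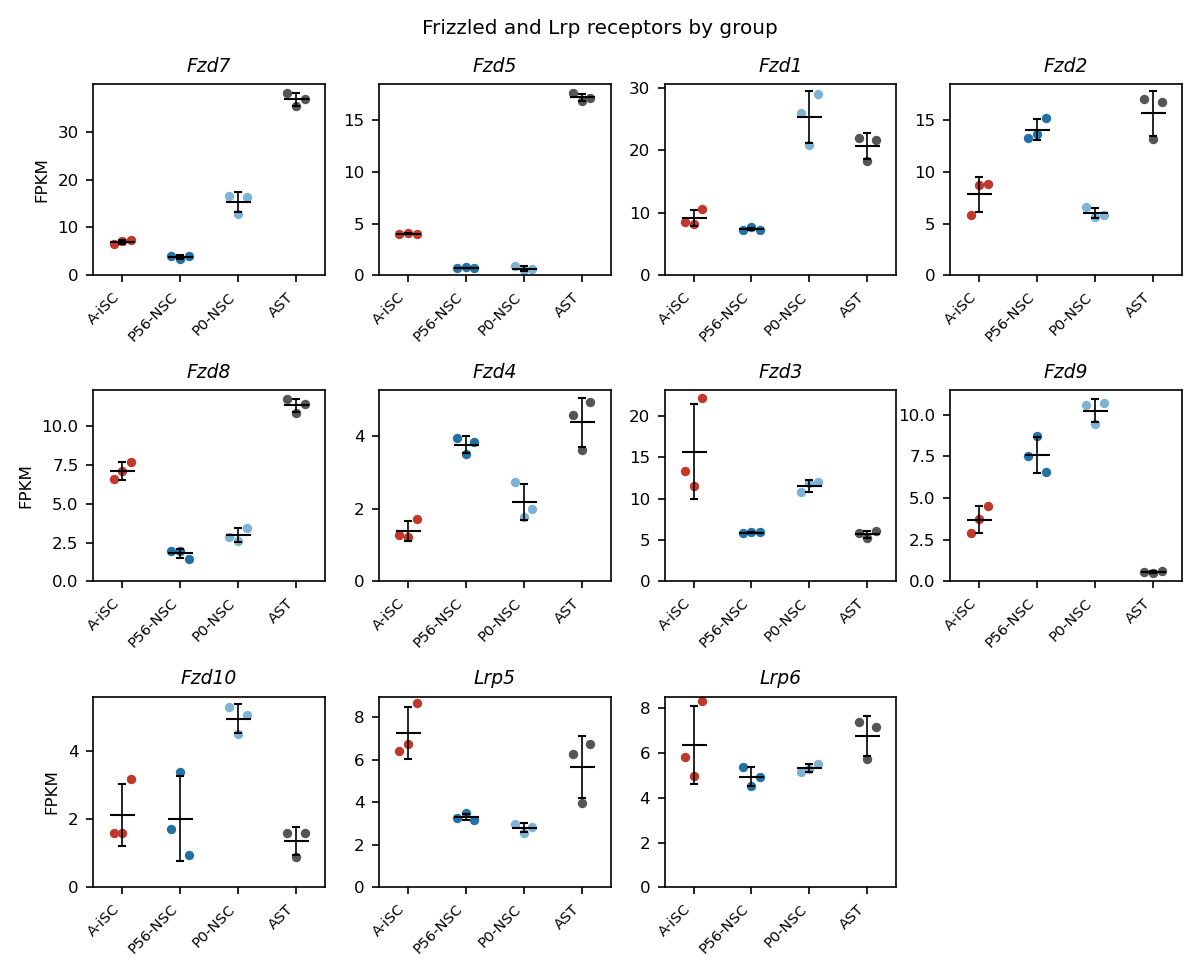
FPKM of 9 Frizzled receptors, Lrp5 and Lrp6 by group, with a point per library, the mean as a bar and whiskers of 1 SD, on linear axes that start at 0. Fzd7, Fzd5 and Fzd8 are highest in AST, Fzd9 is lowest in AST, and Fzd3 is spread widely in A-iSC, with A-iSC 3 at 22.2 FPKM.

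R-spondins, which act through Lgr receptors and the ubiquitin ligases Znrf3 and Rnf43, were highest in P0-NSC. The summed level of 4 R-spondin genes was 1.03 ± 0.321 FPKM in A-iSC, 4.53 ± 0.856 in P56-NSC, 17.5 ± 3.80 in P0-NSC and 1.19 ± 0.219 in AST (mean ± SD, n = 3 each). Rspo2 had 0.0485, 0.0494 and 0.0511 FPKM in A-iSC, 0.237, 0.280 and 0.261 FPKM in P56-NSC, 7.22, 4.88 and 7.14 FPKM in P0-NSC and 0.280, 0.0868 and 0.358 FPKM in AST. P0-NSC was the only group above 1 FPKM, and A-iSC lay below every other library. Rspo2 rose in P0-NSC against AST by 2.57 (SE 0.13, adjusted p 4.2e-09), and its change in A-iSC was -0.24 (adjusted p 0.13), which was called without P0-NSC 2 (adjusted p 0.039) and with a pseudocount of 0.1 (-1.09, adjusted p 0.0081). Rspo1 had 0.282, 0.282 and 0.115 FPKM in A-iSC, 2.14, 3.41 and 3.35 FPKM in P56-NSC, 6.27, 3.65 and 6.52 FPKM in P0-NSC and 0.0615, 0.127 and 0.139 FPKM in AST. P0-NSC was above P56-NSC, and P56-NSC above A-iSC and AST, which overlapped. Rspo1 rose against AST by 1.82 in P56-NSC (SE 0.18, adjusted p 1.7e-06) and by 2.51 in P0-NSC (adjusted p 1.1e-07). Rspo3 had 1.01, 0.368 and 0.869 FPKM in A-iSC, 1.03, 1.19 and 1.41 FPKM in P56-NSC, 5.09, 4.56 and 6.81 FPKM in P0-NSC and 0.598, 1.05 and 0.836 FPKM in AST. The P0-NSC libraries were above all others, and AST overlapped both A-iSC and P56-NSC. Rspo3 rose in P0-NSC against AST by 1.82 (SE 0.17, adjusted p 9.5e-07), and the change in A-iSC was -0.076 (adjusted p 0.72). None of the 3 tested R-spondins was called in A-iSC against AST (limma, 0 of 3 also at an unadjusted p under 0.05), and with voom on recovered reads 1 of 3 was, Rspo2 (-1.71, adjusted p 0.036). Rspo2 was also called with quantile normalization (-0.46, adjusted p 0.0195).

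Within P0-NSC, the library P0-NSC 2 had the lowest value of all 3 tested R-spondins, while the untested Rspo4 was highest there at 0.130 FPKM. This was not particular to R-spondins. Fzd1, Fzd7, Axin2, Nkd1, Lef1 and Tcf7 were among the other members lowest in that library, and Wnt3, Wnt4, Wnt6 and Notum were among those highest. P0-NSC 2 also had the lowest Ttr, the leading transcript of choroid plexus, with 3747, 725 and 2265 FPKM in the 3 P0-NSC libraries. Its summed level of red blood cell genes was the lowest as well. The 8 of 8 ependymal and choroid plexus markers summed to 61.2 to 74.1 FPKM in A-iSC, 1712 to 3465 in P56-NSC, 821 to 3885 in P0-NSC and 53.7 to 66.1 in AST. Most of the sum in P56-NSC and P0-NSC was Ttr. Of the same list Clic6, Folr1 and Kl were also lowest in P0-NSC 2. Tmem212, Ccdc153 and Rsph1 were instead highest in that library, as with Ccdc153 at 2.68, 6.17 and 1.57 FPKM in the P0-NSC libraries. Endothelial markers summed to 79.6 to 85.0 FPKM in P0-NSC and to no more than 8.79 in any other library. Cldn5 was at 0 in every AST library and in A-iSC 2 and A-iSC 3. Yet 4 of 8 endothelial genes averaged at least 1 FPKM in AST, with Kdr at 2.46 and Cdh5 at 2.28. Both were higher there than in A-iSC (0.511 and 0.156). Their part in the levels of R-spondins and other members was not tested.

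Among the secreted antagonists, Dkk3 (chr7:112116017-112159057, GRCm38) took the largest share outside AST. The 9 genes together summed to 69.6 ± 25.1 FPKM in A-iSC, 70.0 ± 8.03 in P56-NSC, 77.3 ± 3.01 in P0-NSC and 42.9 ± 4.20 in AST (mean ± SD, n = 3 each). Of 6 tested in A-iSC against AST, 2 rose, 2 fell and 2 were not called, beside 28.1% of all genes higher and 30.8% lower. Dkk3 had 32.4, 39.4 and 73.4 FPKM in A-iSC, 53.0, 58.0 and 48.5 FPKM in P56-NSC, 47.5, 47.4 and 48.8 FPKM in P0-NSC and 8.82, 7.31 and 9.17 FPKM in AST. Every library of the other groups lay above AST, and A-iSC 3 was the highest of all while A-iSC 1 was the lowest outside AST. Dkk3, a divergent Dickkopf that does not bind Lrp5 and Lrp6 as Dkk1 does, rose against AST by 2.31 on the log2 scale in A-iSC (SE 0.23, adjusted p 3.7e-06), 2.52 in P56-NSC (adjusted p 7.0e-07) and 2.38 in P0-NSC (adjusted p 1.3e-06). Without A-iSC 3 the rise in A-iSC was 1.97 (adjusted p 1.0e-07). Between A-iSC and the brain-derived groups Dkk3 was not called (-0.22 against P56-NSC, adjusted p 0.43; -0.073 against P0-NSC, adjusted p 0.79). Without A-iSC 3 both were called, at -0.56 (adjusted p 0.0012) and -0.41 (adjusted p 0.0073).

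Notum and Sfrp1 fell in A-iSC. Notum, an enzyme that strips the lipid from Wnt ligands, is itself a known target of the pathway. Notum had 1.87, 1.54 and 1.27 FPKM in A-iSC, 0.574, 0.880 and 0.176 FPKM in P56-NSC, 3.18, 3.29 and 2.65 FPKM in P0-NSC and 5.55, 5.78 and 5.66 FPKM in AST. The groups did not overlap, and their order from high to low was AST, P0-NSC, A-iSC and P56-NSC. Notum fell against AST, with log2 changes of -1.39 in A-iSC (SE 0.15, adjusted p 9.9e-06), -2.14 in P56-NSC (adjusted p 8.7e-08) and -0.72 in P0-NSC (adjusted p 0.0010). Sfrp1 had 13.7, 16.6 and 21.4 FPKM in A-iSC, 5.76, 5.19 and 5.64 FPKM in P56-NSC, 24.0, 19.3 and 21.3 FPKM in P0-NSC and 29.3, 22.6 and 27.3 FPKM in AST. P56-NSC lay below all other libraries, A-iSC was below AST, and P0-NSC overlapped both. Sfrp1 fell by 0.60 on the log2 scale in A-iSC against AST (SE 0.15, adjusted p 0.0042), a call lost with quantile normalization (-0.33, adjusted p 0.10) or scaling by total reads (-0.40, adjusted p 0.0526), and in P56-NSC it fell by 2.06 (adjusted p 9.1e-08). In P0-NSC the change was -0.28 (adjusted p 0.11), which was called without A-iSC 3 (adjusted p 0.0407) or AST 2 (-0.38, adjusted p 0.0463).

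Sfrp5 and Sfrp2 are relatives of Sfrp1 with their highest levels in a brain-derived group. Sfrp5 had 0.470, 0.376 and 0.216 FPKM in A-iSC, 8.43, 12.9 and 6.97 FPKM in P56-NSC, 0.207, 0.343 and 0.344 FPKM in P0-NSC and 0, 0 and 0.0283 FPKM in AST. P56-NSC was far above all others, and AST held 1 read in 1 of 3 libraries. Sfrp5 rose in P56-NSC against AST by 3.33 (SE 0.16, adjusted p 2.9e-09) and in A-iSC by 0.42 (adjusted p 0.045). The call in A-iSC was lost when A-iSC 1, A-iSC 2, P56-NSC 1 or any 1 library of P0-NSC or AST was left out (adjusted p 0.0542 to 0.13), and the change was 2.02 with a pseudocount of 0.1. Sfrp2 had 0.461, 0.508 and 0.295 FPKM in A-iSC, 0.856, 1.01 and 0.536 FPKM in P56-NSC, 3.53, 2.50 and 3.42 FPKM in P0-NSC and 0.222, 0.160 and 0.325 FPKM in AST. P0-NSC lay above every other library. Sfrp2 rose in P0-NSC against AST by 1.74 (SE 0.13, adjusted p 1.3e-07) and in P56-NSC by 0.54 (adjusted p 0.0024), and the change in P56-NSC became 0.087 with quantile normalization (adjusted p 0.58). Its difference between A-iSC and P56-NSC (-0.34, adjusted p 0.038) was lost without A-iSC 1, A-iSC 3, P56-NSC 1, P56-NSC 2 or AST 1 (adjusted p 0.0502 to 0.14), and became -0.13 with scaling by total reads (adjusted p 0.38) and -0.10 with quantile normalization (adjusted p 0.52). Dkk2, an antagonist that binds the co-receptors, stayed at or below 1.32 FPKM in every library and ranged over 0.874 to 1.31 FPKM in A-iSC, 0.0164 to 0.0466 in P56-NSC, 0.314 to 0.343 in P0-NSC and 1.21 to 1.32 in AST.

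The intracellular feedback genes had their highest levels in P0-NSC. Axin1, Axin2, Nkd1 and Nkd2 summed to 21.8 ± 2.08 FPKM in A-iSC, 25.6 ± 1.23 in P56-NSC, 49.7 ± 4.05 in P0-NSC and 22.2 ± 2.28 in AST (mean ± SD, n = 3 each). Against AST, 1 of the 4 rose in A-iSC and 3 were not called (28.1% of all genes higher). In P56-NSC 2 rose and 2 fell (37.1% higher and 37.0% lower), and in P0-NSC all 4 rose (35.9% higher). Nkd2 passed the filter only through P0-NSC, so its rise there was partly set by the filter. Axin2 had 6.51, 8.95 and 8.24 FPKM in A-iSC, 2.67, 3.47 and 2.77 FPKM in P56-NSC, 10.8, 8.64 and 10.9 FPKM in P0-NSC and 7.50, 6.29 and 7.28 FPKM in AST. A-iSC overlapped AST and P0-NSC, and P56-NSC was below all other libraries. Axin2, a scaffold gene widely used as a readout of beta-catenin activity, changed by 0.14 in A-iSC against AST (SE 0.13, adjusted p 0.38) and was not called, and with voom on recovered reads it was (0.39, adjusted p 0.042). Against AST it fell by 1.02 in P56-NSC (adjusted p 1.9e-05) and rose in P0-NSC by 0.47 (adjusted p 0.0066). The difference of A-iSC from P0-NSC (-0.33, adjusted p 0.0452) was lost when 1 of 7 libraries was left out, namely A-iSC 1, P56-NSC 1, P56-NSC 3, P0-NSC 1, P0-NSC 3, AST 1 or AST 3 (adjusted p 0.0547 to 0.19). The 250 bases before the RefSeq start of Axin2 (chr11:108920099-108920348, plus strand, GRCm38.p6) are shown because this gene is the usual readout of the pathway, and they held 0 matches to the TCF and LEF motif.
Axin2: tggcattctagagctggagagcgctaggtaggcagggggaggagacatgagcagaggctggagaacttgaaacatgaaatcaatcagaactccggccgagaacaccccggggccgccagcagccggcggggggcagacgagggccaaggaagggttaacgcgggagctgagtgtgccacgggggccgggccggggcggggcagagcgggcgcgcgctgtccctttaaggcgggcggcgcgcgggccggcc
Nkd1 had 2.05, 1.69 and 1.75 FPKM in A-iSC, 11.9, 12.3 and 11.5 FPKM in P56-NSC, 14.4, 12.4 and 13.5 FPKM in P0-NSC and 1.02, 1.88 and 1.46 FPKM in AST. Nkd1, whose product binds Dishevelled and dampens the signal, was high in both brain-derived groups and low in A-iSC and AST, which overlapped. It rose against AST by 2.41 in P56-NSC (SE 0.12, adjusted p 3.4e-09) and by 2.57 in P0-NSC (adjusted p 2.8e-09), and in A-iSC the change was 0.22 (adjusted p 0.15). That change was called without AST 2 (0.34, adjusted p 0.022) or with scaling by total reads (0.36, adjusted p 0.021). The log2 difference of Nkd1 in A-iSC was -2.19 against P56-NSC (adjusted p 1.4e-08) and -2.35 against P0-NSC (adjusted p 8.2e-09).

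Nkd2 had 0.750, 0.985 and 0.703 FPKM in A-iSC, 0.621, 0.736 and 0.981 FPKM in P56-NSC, 6.39, 5.64 and 6.03 FPKM in P0-NSC and 0.445, 0.429 and 0.580 FPKM in AST. P0-NSC stood alone, and the other 9 libraries were below 1 FPKM. Nkd2, a relative of Nkd1, rose in P0-NSC against AST by 2.24 (SE 0.10, adjusted p 1.8e-09). Its changes in A-iSC (0.29, adjusted p 0.027) and P56-NSC (0.26, adjusted p 0.035) were called and depended on single libraries. That in A-iSC was lost without A-iSC 2, AST 1 or AST 2 (adjusted p 0.075 to 0.11), and the change became 0.049 with quantile normalization. That in P56-NSC was lost without P56-NSC 2, P56-NSC 3, AST 1 or AST 2 (adjusted p 0.0561 to 0.15), and it turned to -0.20 with quantile normalization. Axin1, the constitutive scaffold, ranged over 10.2 to 12.8 FPKM in A-iSC, 9.21 to 10.3 in P56-NSC, 18.4 to 21.1 in P0-NSC and 11.0 to 14.4 in AST. It rose in P0-NSC against AST by 0.58 (adjusted p 0.00082) and fell by 0.38 in P56-NSC (adjusted p 0.012), a call lost without AST 1 or AST 3 (adjusted p 0.052 and 0.0534). Its change in A-iSC, -0.21 (adjusted p 0.15), was called without A-iSC 3 (adjusted p 0.041) or AST 2 (adjusted p 0.021).

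Tcf7 (chr11:52252371-52283331, as deposited) and Lef1 encode DNA-binding partners of beta-catenin. The deposited position of Tcf7 does not match GENCODE M21, while those of the other 49 members do. Tcf7 had 3.43, 3.01 and 2.92 FPKM in A-iSC, 0.916, 0.846 and 0.744 FPKM in P56-NSC, 5.18, 4.15 and 5.35 FPKM in P0-NSC and 14.3, 13.8 and 14.3 FPKM in AST. AST lay above every other library, and the order below it was P0-NSC, A-iSC and P56-NSC with no overlap. Tcf7 fell against AST, with log2 changes of -1.88 in A-iSC (SE 0.10, adjusted p 1.6e-08), -3.05 in P56-NSC (adjusted p 6.9e-11) and -1.37 in P0-NSC (adjusted p 8.9e-08). Lef1 stayed under 0.3 FPKM outside P0-NSC, with 0.0287 to 0.0891 FPKM in A-iSC, 0.131 to 0.276 in P56-NSC, 1.36 to 1.79 in P0-NSC and 0.129 to 0.147 in AST. It rose in P0-NSC against AST by 1.20 on the log2(FPKM + 1) scale (SE 0.084, adjusted p 8.8e-08). Its change in A-iSC against AST was -0.11 (adjusted p 0.29) on that scale. It was called with voom on recovered reads (-1.14, adjusted p 0.0452) and with quantile normalization (-0.31, adjusted p 0.0122).

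**Figure D4:**
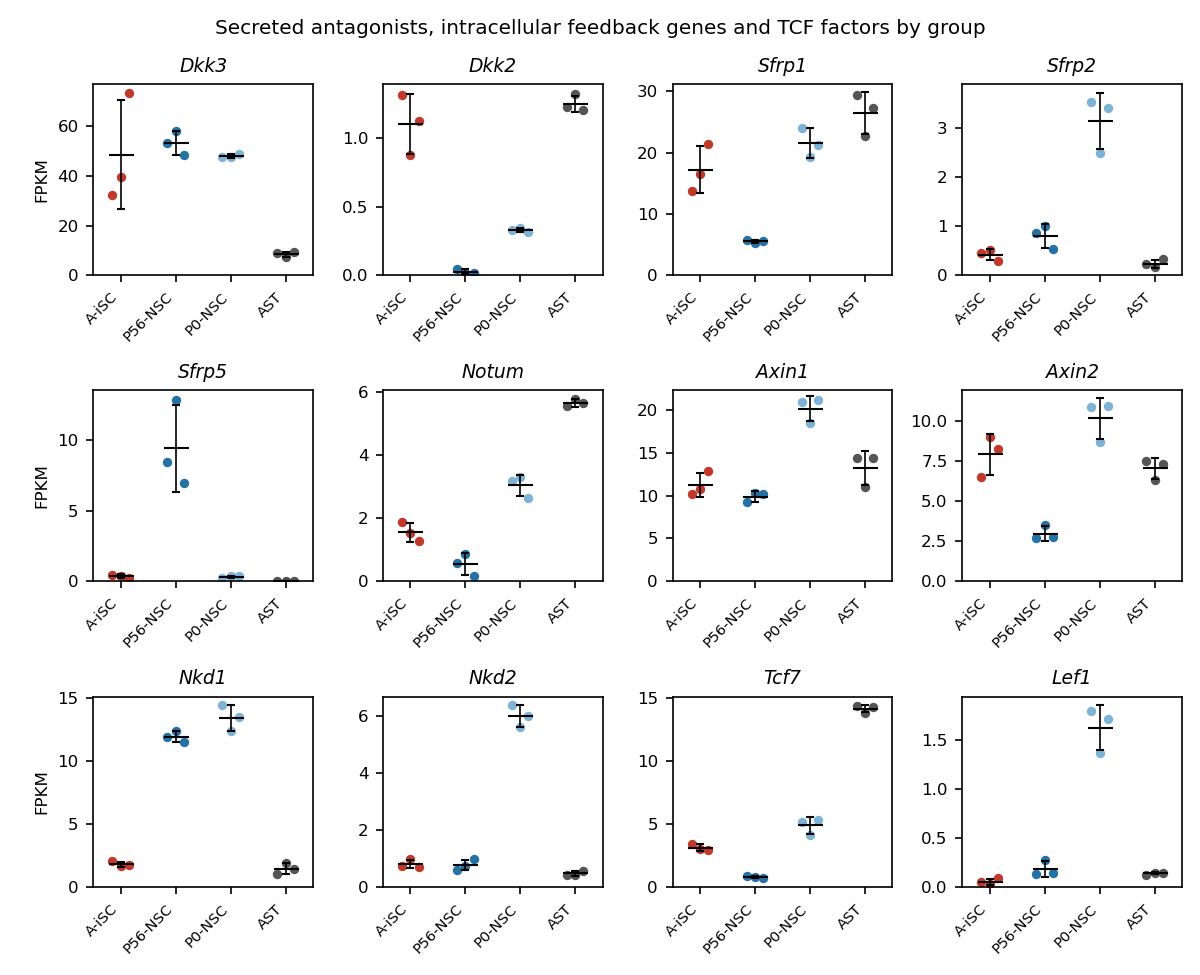
FPKM of 6 secreted antagonists, 4 intracellular feedback genes, Tcf7 and Lef1 by group, with a point per library, the mean as a bar and whiskers of 1 SD on linear axes that start at 0. Dkk3 is low in AST alone, Sfrp5 is high in P56-NSC, Nkd2 and Lef1 are high in P0-NSC, and Tcf7 is highest in AST.

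**Figure D5:**
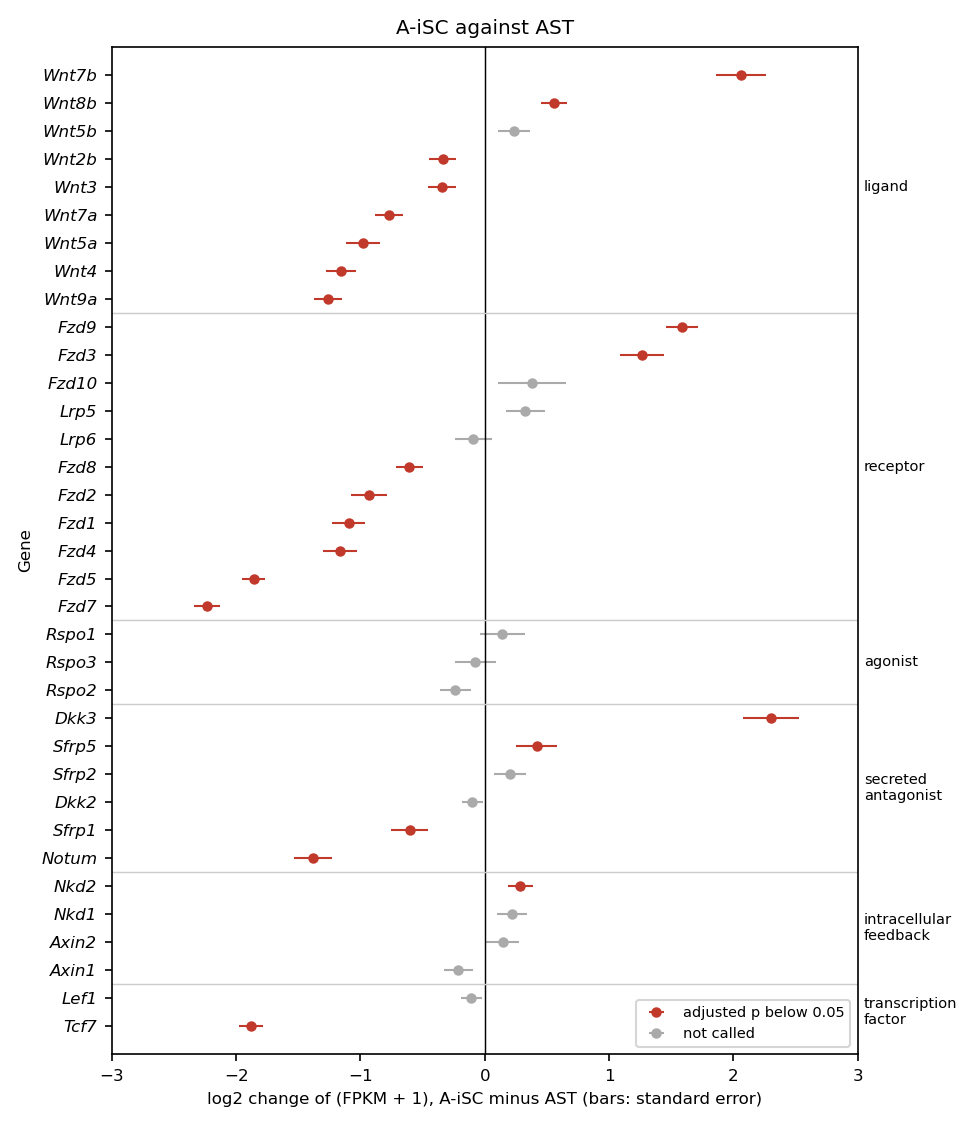
Log2 change of (FPKM + 1) of each tested member in A-iSC minus AST, with bars of 1 standard error and red points for members with an adjusted p below 0.05, in order of role. Receptors run from Fzd9 at 1.59 to Fzd7 at -2.24, and Dkk3 at 2.31 and Wnt7b at 2.06 are the members that rose furthest.

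Markers of other cells moved with the same contrast of A-iSC against AST. The 8 of 8 microglia and macrophage markers summed to 1098 to 1517 FPKM in A-iSC and 98.0 to 129.8 in AST. The 8 of 8 fibroblast, mural and meningeal markers summed to 33.0 to 66.2 FPKM in A-iSC and 1883 to 2270 in AST. Rgs5 and Lum of this list went the other way at low levels. Rgs5 averaged 0.699 FPKM in A-iSC and 0.311 in AST, and Lum 0.128 and 0.0374. In AST Acta2 averaged 1848 FPKM and Col1a1 158, and the other 6 genes of the list had their highest means in P0-NSC, as with Rgs5 at 38.6 FPKM in P0-NSC and 0.311 in AST, and Lum was at 0 in AST 2. Astrocyte markers summed to 1211 to 2466 FPKM in A-iSC and 143 to 161 in AST. The part of these cell types in the changes of members was not tested.

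The 15 untested members were Wnt1, Wnt2, Wnt3a, Wnt6, Wnt8a, Wnt9b, Wnt10a, Wnt10b, Wnt11, Wnt16, Fzd6, Rspo4, Dkk1, Dkk4 and Sfrp4. For 10 of them no library reached 1 FPKM, and the highest value was 0.821. Wnt3a, a hem ligand, had 0, 0.0152 and 0.0270 FPKM in A-iSC, 0.0417, 0.0226 and 0 in P56-NSC, 1.54, 0.995 and 1.46 in P0-NSC and 0 reads in every AST library, so that it was detected mainly in P0-NSC. Wnt6 reached 0.957 to 1.94 FPKM in P0-NSC and Wnt11 0.873 to 1.29 FPKM in P56-NSC. Wnt2 had 0.0440 to 0.0746 FPKM in A-iSC and 0.875 to 1.07 in AST, and Sfrp4 0.437 to 0.503 in A-iSC and 0.690 to 1.07 in P0-NSC. Dkk1, the best known inhibitor of Lrp5 and Lrp6, had at most 0.150 FPKM in any library.

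Genes around the members were described with 4 lists that had been chosen with earlier results of these data known. Of 30 genes of Wnt secretion and beta-catenin signalling, 29 were tested, and in A-iSC against AST 7 rose, 9 fell and 13 were not called, with a median log2 change of -0.01 beside 0.00 over all genes tested, of which 28.1% were higher and 30.8% lower. With scaling by total reads 4 in place of 9 were lower. Wls, the carrier that brings Wnts to the cell surface, averaged 15.3 ± 3.67 FPKM in A-iSC and 42.6 ± 4.26 in AST (mean ± SD, n = 3 each) and fell by 1.44 on the log2 scale (adjusted p 5.6e-06). Porcn, the enzyme that attaches the lipid to Wnts, averaged 6.05 ± 1.02 FPKM in A-iSC and 2.47 ± 0.727 in AST and rose by 1.03 (adjusted p 6.4e-05). The corepressor genes Tle2 and Tle4 rose by 1.0 (adjusted p 0.0014) and 1.0 (adjusted p 0.00010). In P56-NSC against AST 11 genes of this list rose and 7 fell (37.1% and 37.0% of all genes), and in P0-NSC 15 rose and 7 fell (35.9% and 38.3% of all genes).

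Of 15 further antagonists and co-factors 13 were tested, and in A-iSC against AST 4 rose and 6 fell (28.1% and 30.8% of all genes), with a median of -0.37. Gpc4, a glypican that presents Wnts, averaged 31.5 ± 3.59 FPKM in A-iSC and 221 ± 17.0 in AST and fell by 2.77 (adjusted p 3.7e-09). Adgra2, the partner of Wnt7 signalling in brain vessels, averaged 0.558 ± 0.0305 FPKM in A-iSC and 6.83 ± 1.18 in AST and fell by 2.32 (adjusted p 2.7e-08), and Trabd2b, a protease that cleaves Wnts, fell by 2.65 (adjusted p 4.0e-08). Ndp, which encodes norrin, the ligand of Fzd4, averaged 16.7 ± 4.69 FPKM in A-iSC and 3.06 ± 0.277 in AST and rose by 2.10 (adjusted p 3.9e-07). In A-iSC the ligand norrin thus rose while its receptor Fzd4 fell. Of this list 5 rose and 7 fell in P56-NSC (37.1% and 37.0% of all genes), and 6 rose and 5 fell in P0-NSC (35.9% and 38.3% of all genes), each against AST.

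Of 18 genes of non-canonical signalling and planar polarity 17 were tested, and in A-iSC against AST 5 rose and 9 fell (28.1% and 30.8% of all genes), with a median of -0.24. The receptor kinase Ror1 averaged 0.467 ± 0.0695 FPKM in A-iSC and 4.33 ± 0.357 in AST and fell by 1.86 (adjusted p 1.0e-08), and Ptk7, a related pseudokinase, fell by 1.43 (adjusted p 1.9e-07). The polarity cadherins Celsr1 and Celsr2 rose by 1.39 (adjusted p 9.6e-06) and 1.29 (adjusted p 0.00023). Against AST, 6 rose and 6 fell in P56-NSC (37.1% and 37.0% of all genes), and 7 rose and 7 fell in P0-NSC (35.9% and 38.3% of all genes).

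Of 20 genes known as Wnt targets in other settings 17 were tested, and in A-iSC against AST 5 rose and 10 fell (28.1% and 30.8% of all genes), with a median of -0.38, and 6 fell with scaling by total reads. The cyclin gene Ccnd1 averaged 12.3 ± 2.13 FPKM in A-iSC and 428 ± 92.5 in AST and fell by 5.0 on the log2 scale (SE 0.17, adjusted p 1.0e-09). Ccnd2, another cyclin gene, fell by 3.24 (adjusted p 7.6e-08), Fst, an activin antagonist, fell by 3.30 (adjusted p 1.0e-09) and Ccn4, a matricellular gene, fell by 3.11 (adjusted p 1.1e-08). Against AST, 6 rose and 8 fell in P56-NSC (37.1% and 37.0% of all genes), and 5 rose and 10 fell in P0-NSC (35.9% and 38.3% of all genes). Many of these targets answer to other pathways as well.

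The library kit does not mark strand, and exons of 8 tested members (Axin2, Fzd5, Lef1, Notum, Rspo3, Sfrp2, Wnt5a and Wnt7b) overlap a gene on the opposite strand in GENCODE M21. Reads of the overlapping stretch cannot be told apart. Over the 6 comparisons, 135 of 157 member calls kept their direction and their side of the threshold under every alternative setting in which they were tested, and in A-iSC against AST 17 of 22 did.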

How the data were processed

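RNA was measured by sequencing in 12 libraries from 4 groups of 3. The authors deposited FPKM values per gene with names, identifiers, coordinates and lengths. The submitters' processing notes name mm8, mm9 and Bowtie 0.12.2. Coordinates in the table are nevertheless those of GRCm38, since 54899 of 55154 identifiers also found in GENCODE M21 (99.54%) lie at the positions of that release. The scaling of values between libraries was not stated. The library kit that the labels' protocols name keeps no strand information. All FPKM values were whole multiples, within 0.01, of the value of 1 read, from which reads and depth were recovered.

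From there, log2(FPKM + 1) was fitted with limma 3.58.1 in R 4.3.3 (tables read with version 1.17.8 of the package data.table) for genes with at least 1 FPKM in at least 3 libraries, 15747 genes, with all 12 libraries in 1 fit (8 residual degrees of freedom), 6 comparisons and Benjamini-Hochberg adjustment at 0.05. This scale understates changes of low genes. Files were read and figures drawn in Python 3.11.15 with numpy 2.4.6, pandas 2.3.3 and matplotlib 3.10.9. The fit was also run on simulated data drawn around A-iSC and AST levels. The outcome is not given, and no result here rests on it. The 441 entries without a name, 0.0957% to 0.156% of reads, were left out. Within each group all pairs of libraries differed by more than counting error (chi-square divided by its degrees of freedom, 2.63 to 105). Alternatives were a pseudocount of 0.1, no filter, a filter at 5 FPKM, quantile normalization, scaling by total reads, voom on recovered reads, fits on 2 groups, a replicate block, removal of a trend with gene length, subsets of AST and A-iSC libraries, and each library left out. Members and lists were chosen with earlier results of these data known. Named with all values were the members that reached a mean of 2 FPKM in a group and were called at 2-fold or more in a comparison, and those called in A-iSC against AST. In each list the 4 called genes with the largest change were named. Promoter windows came from RefSeq (GRCm38.p6).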

Additional observations from a re-analysis of the deposited data

How the results depend on the processing

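The limits are shared by all results: 3 libraries per group, FPKM values scaled between libraries in a way that the sources do not state, and low levels of many members, for which a single read weighs much. Of 157 member calls, 22 were lost or reversed under at least 1 alternative in which they were tested, 5 of them in A-iSC against AST, where Wnt2b, Wnt3, Nkd2, Sfrp1 and Sfrp5 were the calls concerned. The causes were not tested, except that the filter at 5 FPKM left 24 members to test and no filter 50.

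Counts of called members moved by more than 1.5 times in these cases. In A-iSC against AST 11 were higher with voom on recovered reads. With the filter at 5 FPKM, 8 were higher in P0-NSC against AST, 7 lower in A-iSC against P56-NSC, 11 lower in A-iSC against P0-NSC and 14 lower in P56-NSC against P0-NSC. Without a filter 8 were higher in P56-NSC against P0-NSC. In the fit restricted to A-iSC 3, AST 1, AST 3 and the progenitor libraries, 10 were higher in A-iSC against P0-NSC. Without a filter the A-iSC members split into 5 above and 18 below AST. With 1 library left out at a time, higher and lower counts ranged over 5 to 7 and 13 to 17 in A-iSC against AST, 9 to 11 and 13 to 15 in P56-NSC against AST, 16 to 17 and 13 to 15 in P0-NSC against AST, 13 to 14 and 9 to 12 in A-iSC against P56-NSC and 6 to 7 and 19 to 24 in A-iSC against P0-NSC. In P56-NSC against P0-NSC they were 5 throughout and 22 to 24.

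Scaling by total reads shifted the median of all genes by 0.125 on the log2 scale in A-iSC against AST, -0.239 in P56-NSC against AST, 0.197 in P0-NSC against AST, 0.403 in A-iSC against P56-NSC and -0.451 in P56-NSC against P0-NSC, and voom shifted these by 0.20, -0.338, 0.270, 0.563 and -0.625. Under total reads and voom the log2 change turned to 0.096 and 0.11 for Lrp6 and to 0.015 and 0.015 for Dkk2 in A-iSC against AST, and to -0.017 and -0.016 for Wnt7a in P56-NSC against AST. The same settings gave 0.33 and 0.34 for Dkk3 in A-iSC against P56-NSC, and -0.48 and -0.49 for Dkk3 and -0.34 and -0.37 for Wnt7b in P56-NSC against P0-NSC. Rspo3 in A-iSC against AST became 0.016 with total reads and 0.0066 with the length trend removed, and Sfrp1 in P0-NSC against AST 0.0044 with voom. Quantile normalization gave -0.020 for Rspo1 and -0.016 for Sfrp2 in A-iSC against AST, -0.20 for Nkd2 in P56-NSC against AST, 0.058 for Sfrp1 in P0-NSC against AST and -0.21 for Dkk3 in P56-NSC against P0-NSC.

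Restricting A-iSC to library 3, whose spread is then assumed to be that of the other groups, and AST to libraries 1 and 3 gave 0.18 for Lrp6 and 0.13 for Rspo3 against AST, 0.46 for Dkk3 against P56-NSC, and 0.61 for Dkk3 and 0.063 for Wnt7b against P0-NSC. Restricting to A-iSC 1, A-iSC 2 and AST 2, where the lone AST library is likewise assumed to vary like the other groups, gave -0.010 for Nkd1 and -0.00011 for Wnt5b, and leaving out A-iSC 3 with AST 2 gave -0.0015 for Fzd10, all against AST. Leaving out 1 library gave ranges that crossed 0 for Lrp6 (-0.27 to 0.047) and Rspo3 (-0.19 to 0.092) in A-iSC against AST, and for Dkk3 against P56-NSC (-0.56 to 0.021) and against P0-NSC (-0.41 to 0.17).

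A fit with the replicate block, in which the replicate number is a term, gave 7 higher members and 15 lower ones in A-iSC against AST, 9 and 15 in P56-NSC against AST, 17 and 13 in P0-NSC against AST, 13 and 10 in A-iSC against P56-NSC, 6 and 20 in A-iSC against P0-NSC and 5 and 24 in P56-NSC against P0-NSC. The numbers did not pair the libraries: deviations of same-numbered libraries correlated with r from -0.395 to 0.442, over 0.1 in 3 of 18 pairs, and 9 of 36 library and group pairs were closest at their own number. Deviations of A-iSC and AST libraries were still related under other numbers. The r was 0.523 for A-iSC 1 with AST 2, 0.411 for A-iSC 3 with AST 1 and -0.56 for A-iSC 3 with AST 2. What these libraries shared was not tested.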
